A study of Macaca mulatta with 5 samples.

Results

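The selected neurospheres (N1) grown from rhesus macaque embryonic stem cells were compared with the undifferentiated stem cells (ESC) they came from. The comparison uses 2 of the 5 expression arrays of a series that led line 366.4 towards serotonin neurons, with 1 array for each culture stage. ESC were taken at passage 13 while growing on mouse embryonic fibroblasts. N1 spheres had passed through embryoid bodies (EB, 6 to 8 days) and then spent 7 to 9 days in DMEM/F12 with N2 supplement, a defined medium that favours neural cells. Neither group carried a transgene or an added genetic change per the labels, and both come from the same line. The later stages, N2 (FGF4 expansion) and N3 (maturation without FGF4), are given only beside a gene's values.

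Pluripotent stem cells are held in their state by a small circuit of transcription factors around POU5F1, SOX2 and NANOG. When they aggregate into embryoid bodies, cells of all germ layers form together, and a serum-free medium with insulin and transferrin then favours neural precursors over the rest. Neural precursors keep SOX2 and gain position along the head to tail axis through HOX genes, and young neurons switch on microtubule and RNA-binding proteins such as stathmin-2 and the ELAV family.

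A signal here is an array intensity rescaled so that every array has the same trimmed mean. Signals below 100 were set to that floor before log2 was taken, and a ratio with 1 signal below it is a bound, written "at least". Of 14132 named genes, 11166 reached 100 on the ESC or the N1 array and were counted as measured, and 2966 lay below it on both. Because each stage has 1 array, the spread between replicates is unknown, and no test, standard error or p-value was possible. In such bulk samples, fewer cells of a type and less RNA per cell cannot be told apart.

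N1 was at least 2-fold higher than ESC for 1479 genes, which is 13.2% of those measured, and at least 2-fold lower for 1233, which is 11.0%. These shares are given as the background for the gene groups below, as is the median log2 ratio of -0.08 over all measured genes. Members and lists were chosen with earlier results of these data known. A list's distance from the background can thus partly describe that choice, and it is no test of the list. Scaling on the hybridisation controls in place of the trimmed mean raised that median to 0.46, and list medians shifted upward with it, except for trophoblast and amnion (1.58) and ventral hindbrain genes (0.71). With a floor of 50 the balance turned, to 1749 higher and 1785 lower, and with no floor it was 1738 and 1763. At 4-fold the shares were 4.17% higher and 1.72% lower. Differences of 10-fold or more were rarer and mostly upward, with 144 genes higher (1.29%) and 41 lower (0.367%). A gene below 100 in ESC reached 1000 or more in N1 in 79 cases. The opposite pattern, 1000 or more in ESC and below 100 in N1, held for 8 genes. With 200 in place of 1000 the counts were 408 and 208. Without such a minimum the balance turned, with 841 genes below 100 in ESC only and 1119 below 100 in N1 only.

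**Figure D1:**
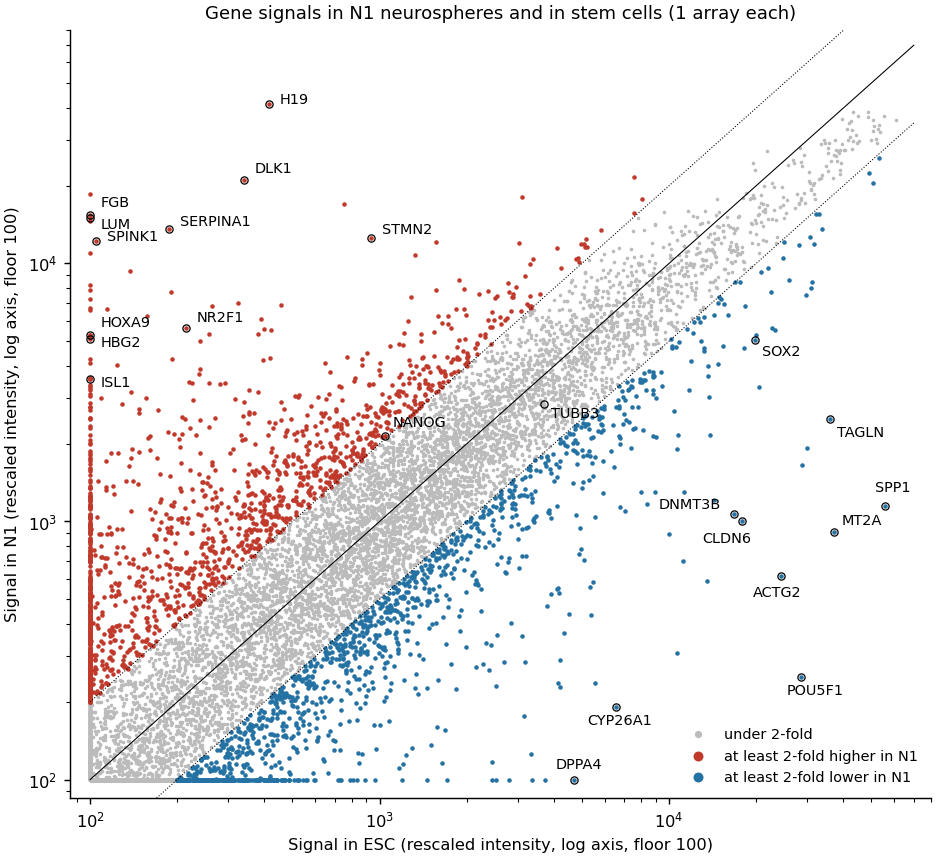
Signal of each named gene in ESC (x axis) and N1 (y axis), both rescaled intensities on log axes with values below 100 drawn at 100. Red points are at least 2-fold higher in N1, blue points at least 2-fold lower, the solid line marks equal signals and the dotted lines 2-fold. POU5F1 lies far below the line, and FGB, LUM and SPINK1 lie at the upper left.

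The 2 arrays differ in RNA quality controls, and these values stand beside all that follows. The 3' probe set of the actin control was 1.73-fold brighter than the 5' one in ESC and 5.43-fold in N1. The GAPDH controls gave 1.94 for ESC and 1.69 for N1, and the EF1a controls 0.863 and 0.829. On the other arrays the actin ratio lay between 8.63 and 25.2. The highest negative control signal was 87.2 in ESC and 60.2 in N1. The part of RNA quality in the gene differences was not tested.

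A second measured probe set gives the only technical check. It existed for 1221 of the genes past 2-fold. Only other probe sets at 100 or more in ESC or N1 were used, here and for the genes named below. Those below 100 on both arrays are left out of the shares. The second probe set moved the same way for 83.3% of them and passed 2-fold itself for 46.2%, while 2.78% passed 2-fold in the opposite direction. Genes lower in N1 had a second probe set past 2-fold the same way in 52.5% of cases, against 42.3% for genes higher in N1. Among the 100 genes past 10-fold with a second probe set, 89.0% moved the same way and 72.0% passed 2-fold. Over all 4576 genes with a second measured probe set, the SD between probe sets was 0.685 on the log2 scale. Among genes past 2-fold it was 0.927 (0.783 for those higher in N1 and 0.744 for those lower). Past 4-fold it was 1.286 and past 10-fold 1.471. Each is a technical spread within 1 pair of arrays and not a replicate spread.

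**Figure D2:**
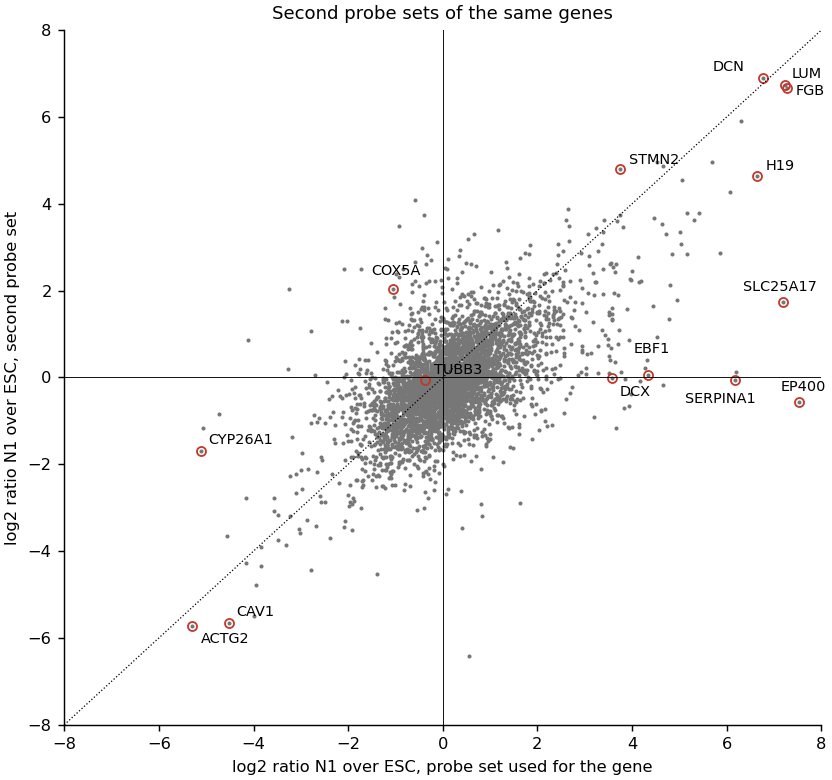
log2 ratio of N1 over ESC for the probe set that stands for a gene (x axis) and for the second probe set of the same gene (y axis), 1 point a gene, with the dotted line marking equal ratios. LUM, FGB, STMN2, ACTG2 and CAV1 lie near the dotted line, whereas EP400, SERPINA1, EBF1 and DCX have second probe sets near 0.

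Genes of the undifferentiated state were lower in N1. Of 34 listed core pluripotency genes 19 have a probe set and 18 were measured, of which 12 were at least 2-fold lower and 1 higher, with a median log2 ratio of -1.74. POU5F1, the central pluripotency factor, had signals of 28621, 906, 249, 80.3 and 14.7 over ESC, EB, N1, N2 and N3. Its N1 signal was 115-fold lower than in ESC, the largest lower difference among genes at 100 or more on both arrays. DPPA4, a chromatin-associated stem cell factor, stood at 4678 in ESC and 71.5 in N1, at least 46.8-fold lower. The DNA methyltransferase gene DNMT3B was 16813 in ESC and 1067 in N1, a 15.8-fold lower signal.

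Further members followed the same direction at smaller size. JARID2, a partner of the Polycomb complex, was 8.59-fold lower, with its other probe set at a log2 ratio of -2.23. The transcription factor gene PRDM14 was at least 7.35-fold lower, and NR5A2 4.94-fold. SOX2, which serves both stem cells and neural precursors, had signals of 19736, 3413, 5056, 13336 and 14978 over ESC, EB, N1, N2 and N3. Its N1 signal was 3.90-fold below ESC, with other probe sets at -2.68 and -2.86, and the N1 value lies between those of EB and N2. NANOG was the exception, at 1047 in ESC and 2145 in N1, 2.05-fold higher on its only measured probe set. After quantile normalisation the NANOG log2 ratio was 0.94, below the 2-fold line.

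Several of the most reduced genes outside that list are also known from stem cells or from their signalling. FGF2, the growth factor that supports primate stem cells, was 1196 in ESC and 19.7 in N1, at least 12-fold lower. ZSCAN10, a zinc finger gene of stem cells, went from 1716 in ESC to 14.8 in N1 (at least 17.2-fold lower), and VRTN from 1454 to 14.7 (at least 14.5-fold lower). CYP26A1, which degrades retinoic acid, had signals of 6571, 806 and 191 over ESC, EB and N1, a 34.5-fold lower N1 signal. The other measured CYP26A1 probe set gave a log2 ratio of -1.69. CLDN6, a tight junction claudin, was 17810 in ESC and 1001 in N1 (17.8-fold lower, other probe set -4.27). The metallothionein gene MT2A, which binds zinc and copper, had signals of 37103, 2848 and 907 over ESC, EB and N1, 40.9-fold lower.

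The remaining largest lower genes have mixed roles. VGF, a secreted peptide precursor, was 4127 in ESC and 236 in N1, 17.5-fold lower. The natriuretic peptide gene NPPB was 3726 in ESC and 64.6 in N1, at least 37.3-fold lower. VTCN1, an immune checkpoint ligand, was at least 28.1-fold lower (2808 and 68.2). NFE2L3, a stress-response transcription factor, was 23.4-fold lower with other probe sets at -3.60 and -3.66. SFN, the 14-3-3 sigma gene, was 21-fold lower and SEL1L3 17.8-fold lower. For 2 genes of this set other probe sets moved far less, with TRIM22, an interferon-induced gene, 26.7-fold lower against -0.83, and MROH1 33.5-fold lower against -1.17. The nucleoporin gene NUP133 (34.3-fold lower) has no other measured probe set, and neither have ARHGAP36 (at least 24.5-fold), LOC699676 (at least 25.3-fold), CYP2S1 (at least 8.88-fold), SLC12A1 (at least 8.39-fold) and NPAS1 (at least 8.07-fold).

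Contractile and cytoskeletal genes were lower as a group. Of 21 measured members of the smooth muscle and cytoskeletal list, 14 were at least 2-fold lower and 0 higher, with a median of -1.36, or -0.78 when arrays were scaled on hybridisation controls. ACTG2, a smooth muscle actin, had signals of 24431, 629, 616, 6600 and 5346 over ESC, EB, N1, N2 and N3. Its N1 signal was 39.7-fold below ESC and its other probe set gave -5.73. The caveolin gene CAV1 was 13547 in ESC and 589 in N1 (23-fold lower), with other probe sets at -5.03 and -5.66. TAGLN, an actin-binding protein of smooth muscle, was 35825 in ESC and 2492 in N1, 14.4-fold lower. Calponin CNN1 was 18.4-fold lower, smooth muscle myosin MYH11 at least 5.91-fold and TAGLN2 5.20-fold.

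The summed signal of the 21 genes had signals of 247436, 112474 and 81935 over ESC, EB and N1. ESC grew on mouse fibroblasts and N1 did not, and the part of feeder RNA in these signals was not tested. Fibroblast matrix genes, by contrast, were split, with 8 of 24 higher, 6 lower and a median of 0.51, or 5 higher, 4 lower and 0.02 with the median of probe sets. SPP1, a secreted phosphoprotein, was 55894 in ESC and 1148 in N1, 48.7-fold lower. THY1, a surface protein of fibroblasts, was 9.36-fold lower, LOXL2 3.44-fold and COL1A2 2.09-fold.

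Among those higher in N1 was LUM, a small proteoglycan of collagen fibrils. It had signals of 46.0, 17532, 14991, 17003 and 12912 over ESC, EB, N1, N2 and N3, at least 150-fold higher in N1 with other probe sets at 6.74 and 3.92. DCN, of the same family, was 13.8 in ESC and 10986 in N1, at least 110-fold higher, and 3 of its 4 other probe sets gave log2 ratios of 7.05, 6.90 and 4.87 while the last gave 0.75. FAP, a protease of activated fibroblasts, was at least 16.1-fold higher, the type VI collagen gene COL6A3 15.1-fold and the proteoglycan VCAN 5.82-fold. COL2A1, the cartilage and notochord collagen, was 157 in ESC and 6226 in N1, 39.7-fold higher. Of 25 basement membrane and integrin genes 5 were higher and 6 lower (median 0.15), with ITGB8 9.87-fold and the laminin gene LAMB1 4.0-fold higher, and ITGB1 5.33-fold and ITGA6 4.57-fold lower.

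Genes of young neurons were higher in N1 than in stem cells, though not all of them. In the list of neuronal cytoskeleton and RNA-binding genes, 21 of 25 with a probe set were measured, 11 were at least 2-fold higher and 2 lower, with a median of 1.12. That median was 0.40, with 10 higher and 2 lower, when a gene's probe set was chosen by its mean over ESC and N1 only. STMN2, a microtubule regulator of growing axons, had signals of 936, 1986, 12594, 13995 and 24814 over ESC, EB, N1, N2 and N3. In N1 it was 13.5-fold above ESC, with the other probe set at 4.80. The RNA-binding gene ELAVL2 had signals of 317, 364 and 2985 over ESC, EB and N1, 9.4-fold higher with its other probe set at 2.21. ELAVL4, of the same family, was 76.2 in ESC and 1344 in N1, at least 13.4-fold higher, and its other probe set also gave 3.75.

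DCX, which binds microtubules in migrating neurons, was 186 in ESC and 2222 in N1, 12-fold higher, but its other probe set gave -0.02. DPYSL3, an axon growth protein gene, was 6.15-fold higher and STMN4 at least 4.76-fold. TUBB3, the neuronal tubulin, had no settled direction. Over ESC, EB, N1, N2 and N3 its signals were 3684, 663, 2852, 1819 and 7590, a log2 ratio of -0.37 in N1 that became 0.21 with hybridisation controls and 1.44 with the median of its probe sets, past 2-fold higher. Its other probe sets ranged from -0.43 to 3.22. The adhesion gene L1CAM was 4.96-fold lower (2239 and 451), and UCHL1, an abundant neuronal deubiquitinase that stem cells also had at 13601, was 3.70-fold lower.

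Factors that start neuron differentiation gave 8 higher and 1 lower of 19 measured members (median 0.37), or 4 higher of 13 at a floor of 200, and a further 8 with a probe set were below 100 on both arrays. ISL1, a LIM homeobox factor of motor and sensory neurons and of heart precursors that 2 other lists also hold, was 59.8 in ESC and 3550 in N1, at least 35.5-fold higher. INSM1, a zinc finger factor of neuroendocrine precursors, had signals of 10.2, 120 and 1668 over ESC, EB and N1, at least 16.7-fold higher. EBF1 was at least 20.1-fold higher (49.8 and 2011), although its other probe set gave 0.07. HAND2 was at least 7.05-fold higher, DLX1 at least 3.92-fold and EBF2 at least 3.12-fold, whereas EOMES was 2.5-fold lower.

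Neural progenitor genes were divided, with 5 of 16 higher, 4 lower and a median of 0.06, or -0.10 at a floor of 50. PAX6, a factor of neural stem cells and eye, had signals of 753, 419, 306, 3301 and 3322 over ESC, EB, N1, N2 and N3. It was thus 2.46-fold below ESC in N1, and the N1 array had the lowest of its 5 signals. SOX3 was 7.50-fold lower and ZIC2 6.43-fold lower, and both were higher in N2 and N3 than in N1. The HOX cofactor genes MEIS1 (at least 42.7-fold) and MEIS2 (25.7-fold, 265 and 6811) were higher, as were the neural tube factor gene PAX3 (at least 12-fold), SOX11 (5.02-fold) and HES6 (2.47-fold). NES and SOX1, usual markers of this stage, were not analysed here. Set against the label of a neural selection stage, several young neuron genes were higher in N1 than in ESC, while L1CAM and UCHL1 were lower. Progenitor genes were divided, with SOX2, SOX3, ZIC2 and PAX6 lower and MEIS1, MEIS2, PAX3, SOX11 and HES6 higher.

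**Figure D3:**
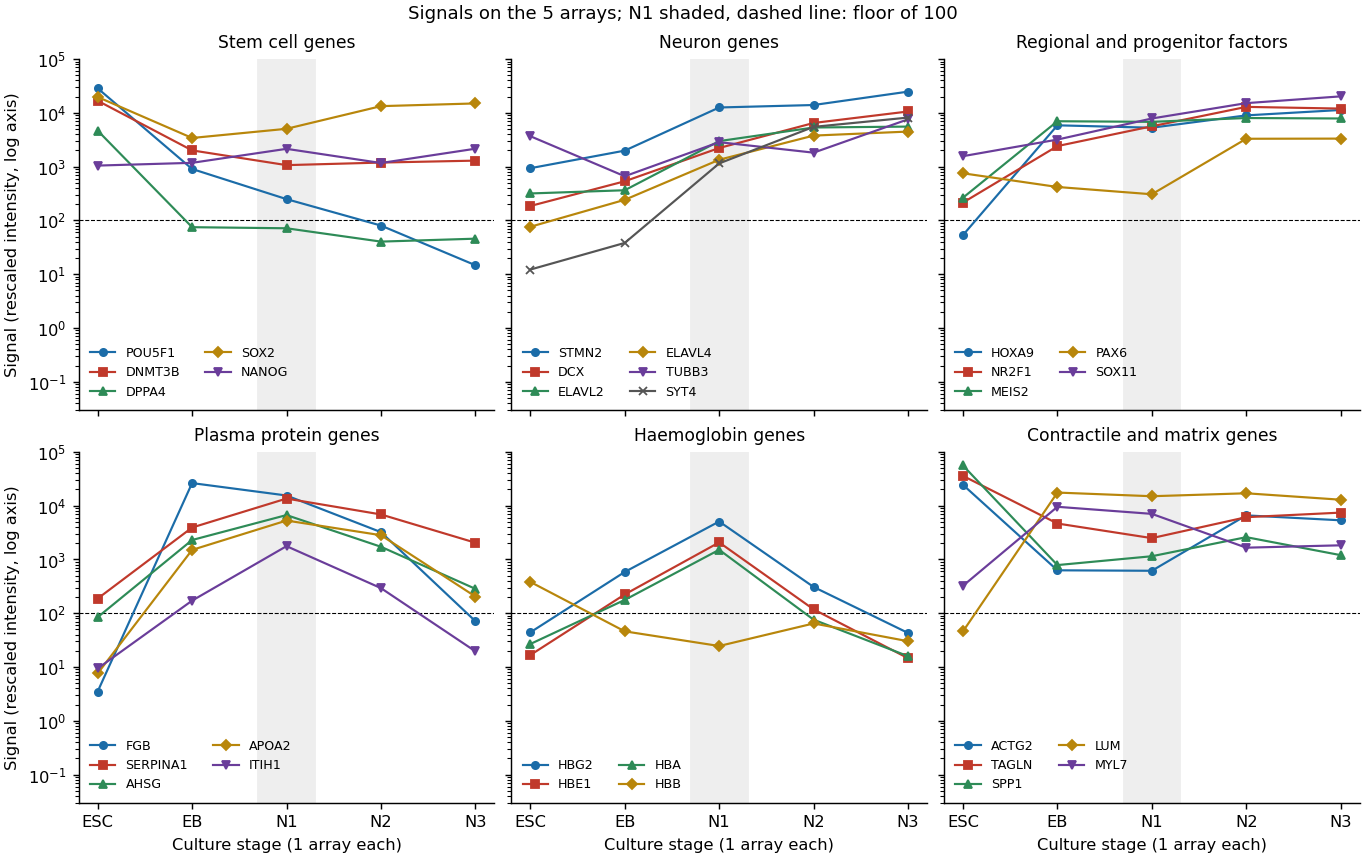
Signals of selected genes on the 5 arrays in culture order (rescaled intensity, log axis, lines join the same gene), with N1 shaded and the floor of 100 dashed. STMN2, ELAVL2 and SYT4 climb at N1, PAX6 is lowest there at 306, and HBG2, HBE1 and HBA peak there.

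Synaptic genes did not share a direction, with 4 of 15 higher, 5 lower and a median of 0.02, which was -0.54 with the median of probe sets, -0.38 at a floor of 200, -0.28 after quantile normalisation and -0.11 with equal medians. SYT4, a synaptotagmin of dense-core vesicles, was 12.2 in ESC and 1149 in N1, at least 11.5-fold higher. SYT1, the calcium sensor of fast release, was 4177 in ESC and 530 in N1, 7.89-fold lower, and its other probe sets gave -2.46 to -2.71. The vesicle protein gene SV2A was 3.17-fold lower and the neurexin gene NRXN3 3.54-fold higher. Of 10 measured GABA and glutamate neuron genes, GAD2, a GABA-synthesising enzyme, was the 1 past 2-fold (4.75-fold higher, other probe set 1.25), with a list median of 0.10. With no floor 4 of the 10 were past 2-fold higher. GAD1, the other such enzyme, was 7.2 in ESC and 162 in N1, at least 1.62-fold higher.

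Serotonin neuron genes were mostly under 2-fold or unmeasured. Of 20 with a probe set 13 were measured, 3 were higher and 2 lower (5 and 2 with no floor), and the median was 0.10, or -0.15 at a floor of 200. TPH2, the brain enzyme that starts serotonin synthesis, lay at 8.3 in N1 and 7.3 in ESC, below the floor on both, so no ratio is given. FEV, the serotonin lineage factor, was 113 and 121. GATA3 was 4.08-fold higher (348 and 1418), MAOA, which breaks serotonin down, 2.71-fold and the tetrahydrobiopterin enzyme gene PTS 2.09-fold. The receptor gene HTR1D was 2.42-fold lower and the tetrahydrobiopterin enzyme gene SPR 2.15-fold lower. GATA3 also acts in other lineages, and in EB its signal was 3912. Ventral hindbrain genes had 6 measured members, of which the forkhead genes FOXA1 (at least 27.1-fold, 14.7 and 2709) and FOXA2 (at least 3.15-fold) and the hedgehog target GLI1 (2.08-fold) were higher and EGR2 3.42-fold lower, with a median of 0.84. Both FOXA genes also mark endoderm, whose genes are given below.

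HOX genes, which set position along the body axis, were higher for most members. Of 24 with a probe set 21 were measured, and 16 were at least 2-fold higher and 0 lower, with a median of 2.88, or 1.61 and 13 higher when all probe sets of a gene were reduced to their median. HOXA9, of the thoracic and lumbar range, had signals of 53.4, 5869, 5296, 8980 and 11316 over ESC, EB, N1, N2 and N3, at least 53.0-fold higher in N1. HOXA10 was at least 15.7-fold higher, HOXB5 at least 12.7-fold, HOXB7 at least 12.2-fold and HOXD10 12-fold. These members reach from the neck groups to the lumbar groups, and none of the 21 was past 2-fold in the other direction.

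Neural crest genes had 8 of 13 higher, 1 lower and a median of 1.84, or 1.23 when probe sets were chosen over ESC and N1. The orphan nuclear receptor genes NR2F2 (at least 33.5-fold, 94.1 and 3347) and NR2F1 (26.2-fold, 215 and 5628) led, and their other probe sets gave 4.54 and 3.31. MSX2 was at least 23-fold higher, but only at a log2 ratio of 0.92 on the probe set with the highest mean over ESC and N1. TFAP2A was at least 21.7-fold higher (other probe sets at 1.66 and -0.37) and TFAP2B at least 11.7-fold (other probe set 0.40) and their relative TFAP2C was 7.91-fold lower. Glial genes gave 6 higher and 2 lower of 17 (median 0.34), with the matrix gene TNC at least 6.75-fold and SOX10 at least 4.98-fold higher and PTPRZ1 6.29-fold lower. GFAP, the astrocyte filament, was 911 and 742, a log2 ratio of -0.30 that became 0.28 with hybridisation controls.

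Axon guidance genes were more often higher, with 12 of 29 higher, 2 lower and a median of 0.61. SLIT2, a repellent ligand, was 397 in ESC and 5569 in N1, 14-fold higher on its only measured probe set. The plexin gene PLXNA2 was 7.64-fold higher, the ephrin receptor genes EPHA3 7.56-fold (other probe set 0.12) and EPHA4 5.80-fold (2.21), and the semaphorin gene SEMA5A 5.30-fold. NTN4 was 7.4-fold lower.

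Genes of liver and yolk sac secretion were among the largest differences. Of 32 plasma protein genes with a probe set 28 were measured, 20 were at least 2-fold higher and 0 lower, with a median of 2.44. That median was 4.33 with no floor and 1.62, with 17 higher, with the median of probe sets. FGB, a fibrinogen chain, had signals of 3.5, 26301, 15461, 3222 and 71.2 over ESC, EB, N1, N2 and N3, at least 155-fold higher in N1 with its other probe set at 6.68. Of the partner chains, FGG was at least 82.7-fold higher and FGA at least 78.6-fold. SPINK1, a trypsin inhibitor, was 105 in ESC and 12251 in N1, 117-fold higher, the largest higher difference among genes at 100 or more on both arrays. The plasma glycoprotein AHSG had signals of 84.4, 2299, 6691 and 1721 over ESC, EB, N1 and N2, at least 66.9-fold higher.

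SERPINA1, the antitrypsin gene, was 72.5-fold higher on the probe set used (187 and 13569), but its 4 other probe sets ranged from 5.76 to -1.98. Its log2 ratio was -0.06 once probe sets that may hybridise to similar RNAs were dropped. AGTR1, an angiotensin receptor kept in this list, was 57.9-fold higher (other probe set 2.88), ITIH1 at least 17.7-fold and the heparin cofactor SERPIND1 at least 13.4-fold. The summed signal of the plasma protein list had signals of 4627, 81326 and 89645 over ESC, EB and N1, so N1 held these transcripts beside its neuron genes, and the part of such cells in other differences was not tested.

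Lipoprotein genes had 9 of 17 higher, 1 lower and a median of 1.59, which was 0.66, with 5 of 13 higher, once probe sets that may hybridise to similar RNAs were dropped. APOC3 had signals of 138, 2998 and 9328 over ESC, EB and N1, 67.7-fold higher, with other probe sets at 4.27 and -0.00. APOA2 was 7.6 in ESC and 5293 in N1 (at least 52.9-fold higher) and APOA1, the main protein of high density lipoprotein, 751 and 16909 (22.5-fold). MTTP, which loads lipid onto apolipoprotein B, was higher by a log2 ratio of at least 4.32, with its other probe set at 0.40. Of 13 endoderm factors 5 were higher and 2 lower (median 0.84), but 2 and 1 with the median of probe sets (0.17). Among them was GATA6, 20.6-fold higher (257 and 5310), while AFP was 2.05-fold lower (991 and 484) and FOXA3 2.72-fold lower. The AFP direction rests on 1 probe set past 2-fold, and its other gave -0.27.

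Heart and vessel genes were also present in N1. In the mesoderm and heart list 16 of 28 measured genes were higher and 1 lower, with a median of 1.36. MYL7, the atrial myosin light chain, had signals of 324, 9531, 7044, 1656 and 1833 over ESC, EB, N1, N2 and N3, 21.7-fold higher in N1. HAND1, a factor of heart and extra-embryonic mesoderm, was 16.3-fold higher, and the troponin gene TNNT2 12.8-fold with its other probe set at 3.61. MYH6 was at least 12-fold higher, with other probe sets at 1.35 and -0.20, and GATA4 was 182 and 286. The endothelial list gave 7 higher and 0 lower of 14 (median 1.10, or 4 higher and 0.59 with the median of probe sets). FLI1 was at least 7.72-fold higher, but its other probe sets gave 0.64, 0.51 and -0.28. MMRN1 was at least 9.96-fold, TIE1 5.09-fold and the junction gene PECAM1 4.16-fold higher (126 and 523). All but MMRN1 and TIE1 of these 4 had a higher signal in EB than in N1.

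Embryonic and fetal haemoglobin genes stood out for their N1 peak. HBG2, a fetal globin, had signals of 44.1, 586, 5079, 308 and 43.0 over ESC, EB, N1, N2 and N3, at least 50.8-fold above ESC. HBE1, the embryonic beta-like globin, was 16.7, 224, 2077, 118 and 14.6 in the same order, at least 20.8-fold higher. HBA, alpha globin, was 26.8, 177, 1513, 75.9 and 15.9, at least 15.1-fold higher. HBB, the adult beta globin, went the other way, from 383 in ESC to 24.6 in N1, at least 3.83-fold lower. Globin genes are near-identical in sequence in places, so a probe set can bind the RNA of a relative. The whole erythroid list had 4 higher and 2 lower of 12 (median -0.21, but 0.12 with hybridisation controls and 1.14 at a floor of 200). The erythroid factors GATA1 (131 in ESC and 64.5 in N1) and KLF1 (109 and 76.7) were named here after their values were seen. With N1 raised to the floor neither passed 2-fold, and both ratios are bounds. The erythroid list had 3 lower in place of 2 at a floor of 50 and with no floor. White blood cell genes gave 1 higher and 3 lower of 9 (median -0.23), with CD14 at least 2.34-fold higher. With hybridisation controls 3 were higher and 0 lower of 8. The median of probe sets gave 1 higher and 0 lower of 9, and a floor of 200 gave 0 each way of 6.

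Among genes at 200 or more in N1 and 100 or more on the next array, these 3 globins were furthest above every other stage. Genes below 100 on all other arrays were not ranked. N1 exceeded the next highest array by 9.28-fold for HBE1, 8.67-fold for HBG2 and 8.55-fold for HBA. The other genes with the largest such excess were ITIH1 (6.03-fold), APOA4 (3.99-fold), SERPIND1 and the thyroxine carrier SERPINA7 (3.33-fold each), FMO2 (3.14-fold), LOC694687 (2.92-fold) and AHSG (2.91-fold). Among 8509 genes at 200 or more in N1 and at 100 or more on the next array, 29 were at least 2-fold above all others in N1. Of the 10 genes named here, 8 encode globins, apolipoproteins or other plasma proteins. The 10 were picked on these same values, and the share of such genes among the 8509 was not counted. The 8 thus describe that choice only.

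Trophoblast and amnion genes moved both ways, with 9 of 17 higher, 4 lower and a median of 1.97, or 0.92 with 8 higher when probe sets were chosen over ESC and N1. CDX2 was at least 12.2-fold higher (90.5 and 1224, other probe set 1.95), ADAM12 at least 17.4-fold and TBX3 at least 10.4-fold, while TEAD4 was 3.89-fold and KRT7 at least 3.52-fold lower. Epithelial genes gave 4 higher and 5 lower of 20 (median -0.46, and 0.12 with hybridisation controls). KRT18 was 7.91-fold higher and the claudin CLDN1 13.3-fold (other probe set 1.09), while CLDN10 was at least 9.61-fold and occludin OCLN at least 3.44-fold lower. KRT8, the usual partner of KRT18, was 4238 in ESC and 2586 in N1, a log2 ratio of -0.71. Of 7 measured skeletal muscle genes 1 was higher and 1 lower (median -0.34, but 0.44 with hybridisation controls, 0.21 with no floor and 0.04 with the median of probe sets), MYBPC1 at least 3.07-fold higher and TNNC2 at least 4.86-fold lower.

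Insulin-like growth factor and imprinted genes went both ways, with 10 of 24 higher, 5 lower and a median of 0.53. H19, a maternally expressed non-coding RNA, had signals of 414, 52029, 41387, 51046 and 42808 over ESC, EB, N1, N2 and N3, 99.9-fold higher in N1 with other probe sets at 4.68 and 4.65. DLK1, a paternally expressed Notch-like protein counted in the Notch list, was 341 in ESC and 20994 in N1, 61.6-fold higher. The growth factor IGF2 was at least 18.8-fold higher, PEG3 14-fold, PLAGL1 13.3-fold and IGF1 at least 12.4-fold. The lower members were led by IGFBP6 (4.52-fold) and the receptor IGF1R (3.19-fold), and the imprinted PHLDA2 was 2.89-fold lower.

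Among signalling lists, Notch genes had 6 of 18 higher and 0 lower (median 0.62, and -0.04 with the median of probe sets). The Notch effector HEY1 was 10.3-fold higher and the ligand DLL1 4.63-fold, although the other DLL1 probe set gave -1.11, and HES5 was at least 2.74-fold higher (5.3 and 274). WNT genes had 13 of 31 higher and 2 lower (median 0.89, or 10 higher, 4 lower and 0.31 with the median of probe sets). The receptor FZD10 was 18.5-fold higher, the agonists RSPO3 15.6-fold and RSPO2 at least 12.9-fold, and the ligand WNT3 5.68-fold, whereas the receptor FZD5 was 9.42-fold lower and TCF7L1, a repressor of stem cells, 3.38-fold lower.

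TGF-beta and BMP genes were split 8 higher and 5 lower of 26 (median 0.21). TGFBI, a matrix protein induced by TGF-beta, was 15.8-fold higher, BMP2 at least 9.45-fold (other probe set 3.45) and the inhibitory SMAD6 4.32-fold, while the activin antagonist FST was 6.45-fold lower (7069 and 1096, other probe sets -3.30 and -3.42). FGF genes leaned down, with 4 higher and 7 lower of 23 and a median of -0.16, which was 0.15 with hybridisation controls. ETV4, an FGF-responsive factor, was 8.08-fold lower and the receptor FGFR1 3.09-fold lower, while FLRT2 was 5.89-fold higher with other probe sets at 1.78 and -0.22. Retinoid genes had 5 of 13 higher and 2 lower (median 0.87). ALDH1A2, which makes retinoic acid, was 50.2 in ESC and 3073 in N1, at least 30.7-fold higher (other probe set 1.78), against the 34.5-fold lower CYP26A1.

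Cholesterol synthesis genes included 9 of 17 that were higher and 0 lower (median 1.24). CYP51A1 was 5.87-fold, the isomerase gene IDI1 4.80-fold (other probe sets 2.24 and 1.93), TM7SF2 4.56-fold, EBP 4.40-fold and the sterol sensor partner INSIG1 4.30-fold higher. Cell cycle genes had 2 of 26 higher and 5 lower (median -0.51), or 2 higher and 1 lower with hybridisation controls (median 0.07). CCND3 was 2.36-fold and CCNE2 at least 3.02-fold higher (other CCNE2 probe set 0.66). The replication helicase genes MCM3 (2.68-fold), MCM4 (2.32-fold) and MCM5 (2.15-fold), CDC6 (2.95-fold) and the inhibitor CDKN2A (6.4-fold) were lower. DNA and histone modifiers were split at 5 each way of 23 (median 0.07, and -0.21 with the median of probe sets), with TET2 5.89-fold higher (other probe set 0.57) and the chromatin protein HMGA1 4.20-fold lower (-3.31).

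Housekeeping lists had medians between -0.33 and -0.13. Ribosomal protein genes had 2 of 24 higher and 2 lower (median -0.31), oxidative phosphorylation genes 1 of 18 higher and 3 lower (median -0.13), and glycolysis and hypoxia genes 4 of 21 higher and 6 lower (median -0.33), or 2 and 7 with the median of probe sets. The glycolysis list's 28.6% lower stands against 11.0% of all genes, but its counts depended on the scaling. With hybridisation controls 6 of the 21 were higher and 1 lower. After quantile normalisation and with equal medians there were 4 each way. With hybridisation controls the medians of the ribosomal, oxidative phosphorylation and glycolysis lists were 0.24, 0.44 and 0.25. The ribosomal median was 0.08 after quantile normalisation. ACTB was 49024 in ESC and 22397 in N1, 2.19-fold lower, and GAPDH 18103 and 10136. Interferon-induced genes had 1 of 22 higher and 3 lower (median -0.11, and 0.34 with hybridisation controls), with 7 lower when no floor was set, led by IFITM1, 15.5-fold lower (29942 and 1933, other probe set -4.78), and neuropeptide genes 2 of 12 higher and 5 lower (median -0.60), led by NPPB and VGF above.

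**Figure D4:**
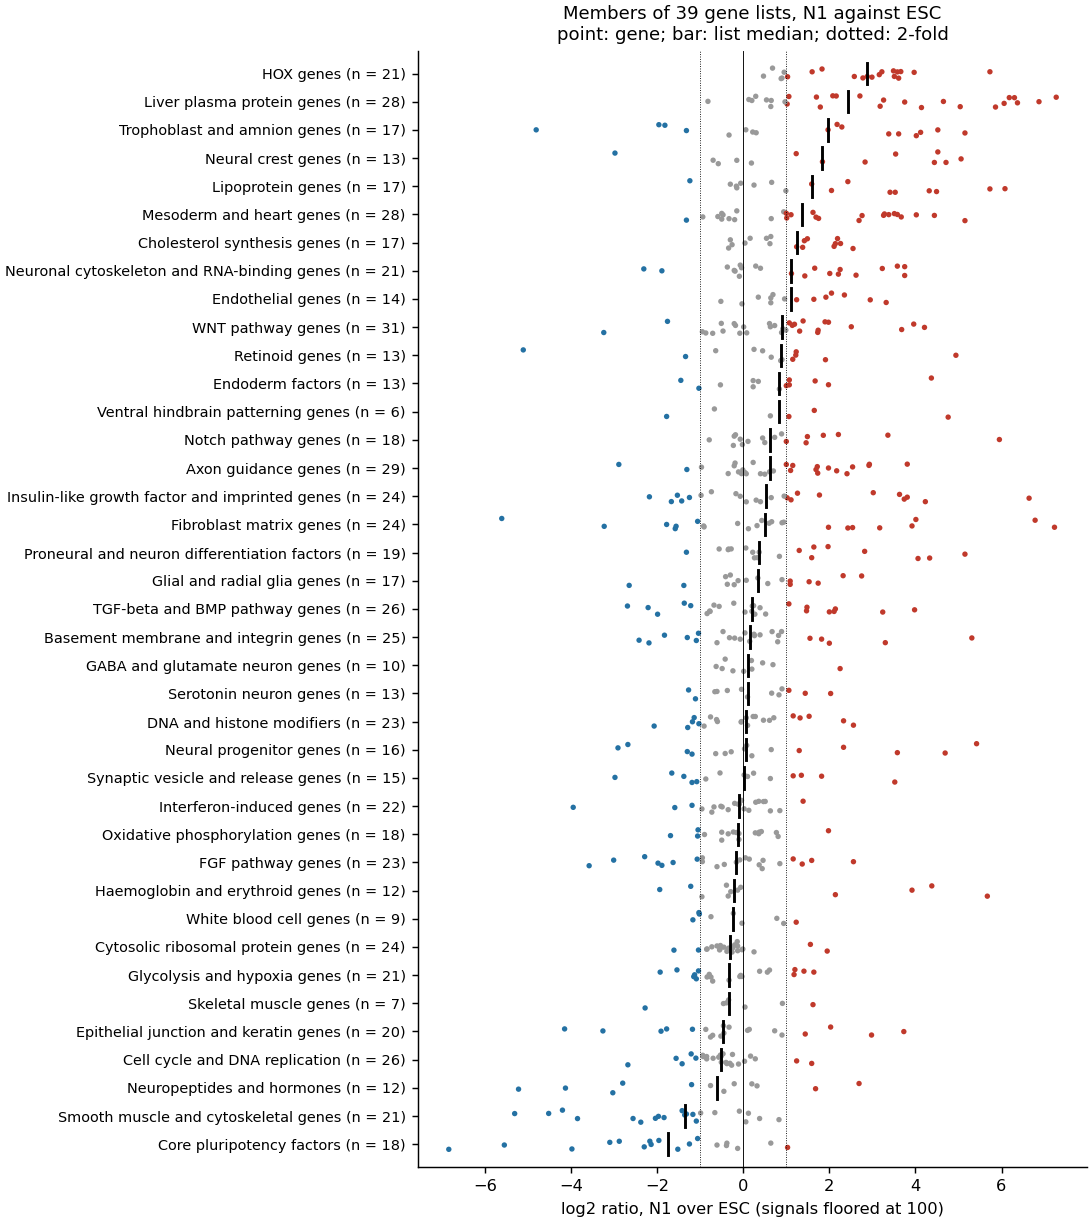
log2 ratio of N1 over ESC for each measured member of the 39 gene lists (1 point a gene, random vertical offset), sorted by list median (black bar), with dotted lines at 2-fold, red points higher and blue points lower in N1. HOX and plasma protein genes lie at the top with medians of 2.88 and 2.44, and core pluripotency genes at the bottom with -1.74.

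Part of the distance from ESC was already present in EB. The EB and N1 ratios share the ESC array, so they are given side by side and not correlated. In EB, 12.1% of 10978 measured genes were at least 2-fold above ESC and 11.8% below. HOX genes had a median of 2.67 in EB and 2.88 in N1, plasma protein genes 2.40 and 2.44, and core pluripotency genes -1.28 and -1.74. By contrast, the neuronal list stood at -0.28 in EB (5 higher and 5 lower of 19 measured) and 1.12 in N1 (21 measured). The synaptic list stood at -1.38 in EB (11 measured) and 0.02 in N1 (15 measured). Genes below the floor in ESC and EB but not in N1, such as SYT4, enter the N1 median only. The EB and N1 medians of a list can thus cover different members, and medians over shared members are not given. Endothelial genes were at 1.86 in EB and 1.10 in N1. No test of these differences could be made.

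Some genes were selected for a small EB difference and a large N1 difference, so they describe that choice and support nothing. Within 1.5-fold of ESC in EB but at least 4-fold above it in N1 were ELAVL2 and the transcription factor NFIB (733 in ESC, 572 in EB and 3332 in N1, 4.54-fold higher, all 4 other probe sets above 0). The cortisol carrier SERPINA6 was 7.81-fold higher, GAS2 5.20-fold, the collagen COL8A2 4.80-fold, NREP 4.55-fold, the synuclein-binding SNCAIP 4.49-fold and the homeobox gene ALX1 4.37-fold. LOC699539 (8.38-fold) and the polymerase POLK (4.53-fold, other probe set 0.56) complete the 10. Downward, SPRY4, a feedback inhibitor of FGF signalling, was the 1 gene to meet the same limits, at 834 in ESC, 587 in EB and 170 in N1, 4.90-fold lower.

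**Figure D5:**
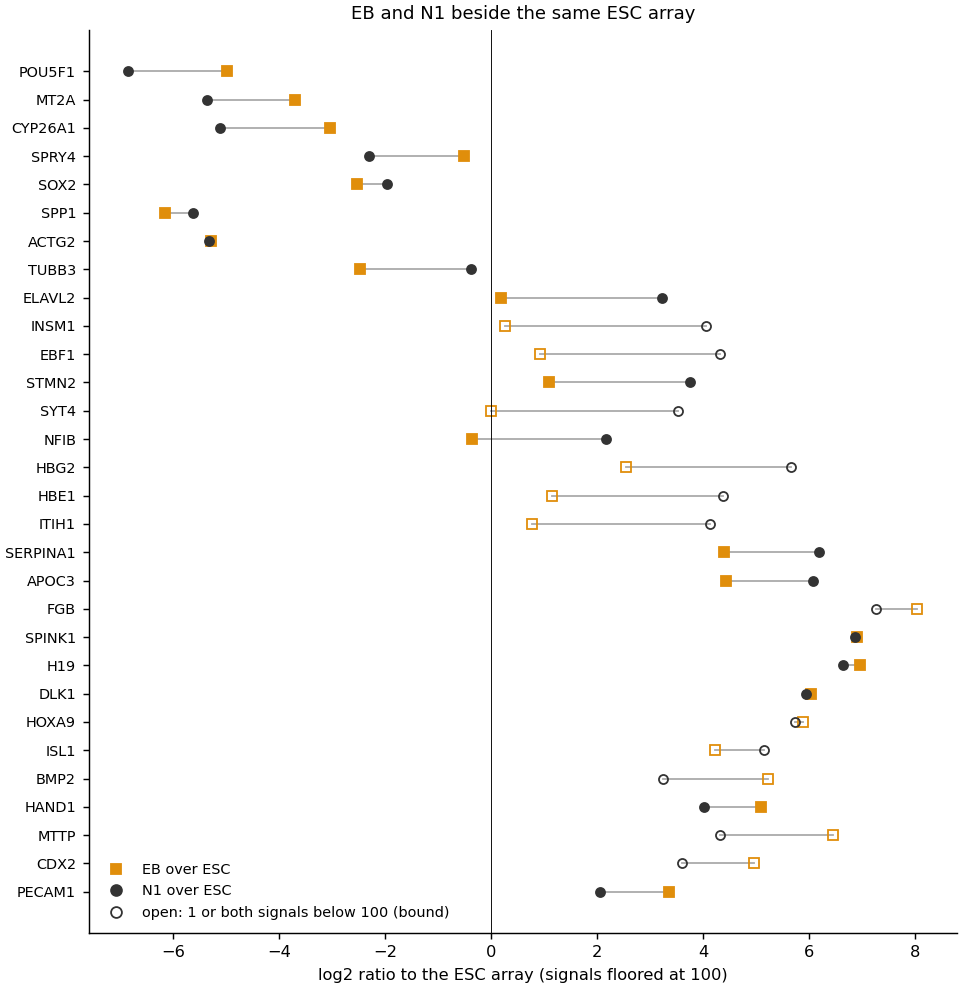
log2 ratio to the same ESC array for EB (orange squares) and N1 (black circles) of 30 genes, 1 row a gene, with open symbols where 1 or both signals lay below 100. ELAVL2, INSM1 and SYT4 sit near 0 in EB (SYT4, below 100 on both arrays, is drawn at 0) and between 3.23 and 4.06 in N1, whereas BMP2, MTTP and CDX2 are lower in N1 than in EB.

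The rest of the largest higher genes had mixed roles. SOX6 was 138 in ESC and 3181 in N1, 23.1-fold higher, and its 4 other probe sets were all above 0 (0.86 to 4.97). The monooxygenase gene MOXD1 was 32.6-fold higher (other probe set 3.07), GASK1B 27.5-fold, ZNF503 22.3-fold and LOC694628 40.7-fold. SLC5A12, a lactate transporter of kidney and gut, was at least 65.9-fold higher (54.2 and 6595). For 3 genes the largest bounds rest on a probe set that the others do not follow. EP400 was at least 185-fold higher, yet its other probe sets gave -0.16 and -0.56. SLC25A17 was at least 146-fold higher against 1.75 and 0.12, and ATP8B3 at least 73.1-fold against 0.12 and -0.82.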

How the data were processed

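Total RNA of 5 culture stages was labelled with biotin and hybridised to Affymetrix rhesus arrays, 1 array a stage. The authors deposited linear intensities for all probe sets. GCOS 1.0 is listed in the submitters' processing notes, and its algorithm is not given in the sources used here. Of 52865 probe sets 158 were controls. Trimmed means (2% from each end) of the others were 199.1 to 199.3, so the deposited values were already scaled. Each array was rescaled to 500 (factors 2.508 to 2.511), floored at 100 and put on the log2 scale. Precision is limited by the number of arrays.

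The platform annotation gave 24969 probe sets 1 symbol and 361 several, and 27535 were not listed. Identifiers of 24629 matched a RefSeq gene table and 0 symbols needed updating. For each gene the brightest probe set by mean log2 over the 5 arrays was kept.

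The 39 lists hold 1161 genes, 838 with a probe set (6 matched by a synonym). Members and lists were chosen with earlier results of these data known. Named genes are the 15 largest differences each way at 100 or more on both arrays and 200 on the brighter. Added were the 12 largest bounds each way, and up to 10 each way at 4-fold in N1 but under 1.5-fold in EB. The 10 furthest above all other arrays came from genes at 200 or more in N1 and 100 or more on the next. Up to 6 members each way a list and 29 fixed markers complete the set. LIN28A, SOX1, NES, MAP2, SLC6A4 and DDC were not analysed here. No sequences are printed. Alternatives covered scaling, floor, probe set choice and threshold. The calculation (Python 3.11.15, pandas 2.3.3, numpy 2.4.6) was tested on simulated data.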

Additional observations from a re-analysis of the deposited data

Results flagged for a closer look

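Signals were also found outside the named genes. Among unnamed probe sets measured in N1 or ESC (13511 of 26716), 2159 were at least 2-fold higher in N1 and 1213 lower, or 16% and 8.98%. Past 10-fold there were 93 higher and 48 lower. The array also carries 674 probe sets whose names begin NC-, of which 61 reached 100 or more in ESC and 22 in N1, while every negative control lay below 100. What these probe sets measure was not established.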

How the results depend on the processing

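No paired analysis was possible because each stage has 1 array. Scaling on the 27 hybridisation controls raised the overall median log2 ratio from -0.08 to 0.46 and the counts to 3055 higher and 474 lower, 86.6% higher in place of 54.5%. A 4-fold threshold left 466 higher and 192 lower (70.8% higher). Equal medians gave a median of 0.04 with 63.3% higher, and reducing a gene's probe sets to their median gave 47.9% higher. Under the other settings the counts stayed within 1.5 times those reported, though lower genes outnumbered higher ones at a floor of 50 (49.5% higher) and with no floor (49.6%). Choosing probe sets over ESC and N1, added after seeing the data, gave 1435 higher and 1275 lower. Among named genes past 2-fold, 7 log2 ratios turned sign, and among those under 2-fold TUBB3 and GFAP did, as given above. COX5A was 2.03, GPI 0.05, HEYL -0.07 and HNF4G -0.89 with the median of probe sets. PROX1 was -0.68 with no floor. EP400 was -0.16 and SERPINA1 -0.06 once probe sets that may hybridise to similar RNAs were dropped. A further 162 values fell below 2-fold in the same direction. Another 2999 kept their side of it or moved by less than the SD between probe sets over all genes (0.685). No list median of 1 or more in size changed sign. The cause of these shifts was not tested, also where probe sets of a gene disagree. Signals near 100 limit what can be read, since the highest negative control was 87.2 in ESC.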
